A study of Arabidopsis thaliana with 9 samples.

Results

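The steady-state RNA of 10 Arabidopsis genes for the breakdown of leaf starch and the export of maltose was followed through the first hours of cold. The genes are BAM1 (AT3G23920), BAM3 (AT4G17090), GWD1 (AT1G10760, also called SEX1), PWD (AT5G26570), SEX4 (AT3G52180), DPE1 (AT5G64860), DPE2 (AT2G40840), MEX1 (AT5G17520), AMY3 (AT1G69830), and ISA3 (AT4G09020). They were chosen by their known place in the pathway, but with earlier results of these data known. They are 10 of the 32310 loci in the deposited files, and all 10 passed the filter on low counts. RNA-seq was performed on Col-0 WT seedlings grown on half-strength MS medium in long days. The 3 groups were 22 °C (0 h) and seedlings moved to 4 °C for 3 h or for 12 h, with 3 libraries each. The tissue label gives 10-day seedlings and the treatment label 12 day old ones, and each biological replicate was a pool of whole seedlings from its own plate. The cold began in the morning and under weaker light, and there was no 22 °C library from the later hours. In comparisons with 22 °C, the effects of temperature, of light, and of the hour of sampling cannot be told apart. Between 3 h and 12 h at 4 °C the hour of sampling differed too, so longer cold and the later hour cannot be told apart.

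Leaf starch is built in the chloroplast by day and degraded at night. The dikinases GWD1 and PWD add phosphate to glucans at the granule surface, which opens the surface to hydrolases, and the phosphatase SEX4 takes the phosphate off again. The beta-amylases BAM1 and BAM3 then release maltose, the debranching enzyme ISA3 removes branches, and the alpha-amylase AMY3 cuts within chains. Short leftovers are handled by the plastid disproportionating enzyme DPE1, MEX1 carries maltose across the chloroplast envelope, and DPE2 uses maltose in the cytosol. Transcripts of many of these genes are known to cycle with the circadian clock, and maltose and other soluble sugars are known to accumulate in cold-treated leaves.

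Stretches of DNA around the gene starts are shown for the members that carry the evening element, a motif known from clock-controlled and cold-responsive promoters, and for the members with G-box, ABRE, or CRT/DRE letters close together. The letters AAAATATCT were searched on both strands from 250 bases before to 50 bases after each gene start in the RefSeq annotation of TAIR10.1. They lay in this window of GWD1, PWD, DPE1, and ISA3, so in 4 of 10 members, and in 2.82% of the 27443 protein-coding genes. The sites are at chr1:3590914-3590942 (minus strand, GWD1), chr5:9261436-9261464 (plus strand, PWD), chr5:25928849-25928877 (minus strand, DPE1), and chr4:5783860-5783888 (plus strand, ISA3). All are written 5′ to 3′ on the strand of the gene, with the motif in capitals, and in PWD and ISA3 the motif reads on the opposite strand.
GWD1: aagataaacaAAAATATCTtctgcaattc
PWD: catatttagaAGATATTTTatggacatgt
DPE1: caagagcaacAAAATATCTcgactgtttt
ISA3: tcgtacaagaAGATATTTTccgggaaaat

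The site of GWD1 spans the annotated gene start and that of DPE1 lies just inside the gene, whereas those of PWD and ISA3 begin 33 and 39 bases before the start. Of the other letters searched in the same window, the CCA1 binding site AAAAATCT was found in 1 of 10 members (DPE2) and in 7.88% of all genes. The CRT/DRE core CCGAC, the site of the cold-induced CBF factors, was found in 2 of 10 (AMY3 and ISA3) and in 15% of all genes. The ABRE core ACGTG was found in 4 of 10 (SEX4, DPE1, AMY3, and ISA3) and in 26.7% of all genes. The G-box CACGTG, which contains the ABRE letters, was found in 2 of 10 (DPE1 and ISA3) and in 7.68%. In AMY3 (chr1:26293217-26293266, minus strand) the CRT/DRE and ABRE letters run into each other, and DPE1 (chr5:25928893-25928919, minus strand) has a pair of G-boxes. The capitals mark these letters.
AMY3: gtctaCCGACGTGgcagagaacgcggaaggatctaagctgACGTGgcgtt
DPE1: caccgCACGTGatgatCACGTGatctc

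The 250 bases before the start of BAM3 (chr4:9607403-9607652, minus strand) are shown because BAM3 gave the largest change of the 10 members in both comparisons with 22 °C, and they hold none of the motifs searched.
BAM3: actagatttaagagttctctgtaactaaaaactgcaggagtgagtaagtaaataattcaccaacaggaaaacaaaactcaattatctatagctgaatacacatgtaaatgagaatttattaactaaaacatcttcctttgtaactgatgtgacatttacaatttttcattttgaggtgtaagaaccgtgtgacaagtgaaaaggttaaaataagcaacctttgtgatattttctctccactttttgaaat

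A match of letters is a description of the sequence, and no binding was measured.

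Between 15910839 and 24291683 reads were assigned per library. In TPM (Salmon's level scaled for transcript length and depth), the cold marker CBF3 was at 0.781 to 1.20 at 22 °C, 690.1 to 704 at 3 h, and 369.8 to 429 at 12 h. The evening clock gene TOC1 was at 8.71 to 10.2, 31.7 to 51.4, and 193 to 212 in the same order. Of 5 clock genes, PRR5, TOC1, and GI were called higher at both times, CCA1 was called higher at 12 h, and LHY was called lower at 12 h. The summed level of 4 leaf markers lay between 25747 and 26440 TPM at 22 °C, 21547 and 23504 at 3 h, and 19626 and 22153 at 12 h, and 4 root markers summed to 179.8 to 241, 214.8 to 281, and 222 to 271 TPM in the same order. With TMM scaling, the leaf markers differed from 22 °C by -0.29 (RCA at 3 h) to 0.13 (LHCB2.1 at 12 h) on the log2 scale, short of the fold minimum given below. Of the root markers, EXPA7 was called higher at 12 h (log2 0.59, SE 0.17, edgeR adjusted p = 0.0078). The others were not called at 12 h, with CASP1 at 0.46 (adjusted p = 0.0049), IRT1 at 0.26 (0.087), and COBL9 at -0.12 (0.63). At 3 h no root marker was called. The part of these markers in the results was not tested. The 3 seed storage genes summed to at most 0.230 TPM in every library. In whole seedlings, fewer cells of a type and less RNA per cell cannot be told apart. In the tests below, a gene was called where edgeR's adjusted p was under 0.05 and the log2 fold change was 0.5 or more in size, and all comparisons with 22 °C share the same 3 control libraries.

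The summed level of the 10 members was higher at each cold time, and most of it was BAM3. It was 324 to 357 TPM at 22 °C, 751 to 887 at 3 h, and 2162 to 2291 at 12 h. Without BAM3 it was 229 to 259, 218 to 231, and 359 to 407 TPM. BAM3 held 28.1% ± 1.08 of the sum at 22 °C, 73.1% ± 3.38 at 3 h, and 82.7% ± 1.57 at 12 h (SD, n = 3). These are descriptions of levels with no test. The order below BAM3 also shifted. At 22 °C it ran BAM1, DPE2, AMY3, MEX1, SEX4, GWD1, PWD, ISA3, DPE1, where the ranges of MEX1 and SEX4, of SEX4 and GWD1, and of ISA3 and DPE1 overlapped. At 3 h GWD1 and SEX4 stood in the reverse order, with overlapping ranges. At 12 h it ran AMY3, GWD1, BAM1, DPE2, SEX4, PWD, ISA3, MEX1, DPE1, where GWD1 and BAM1, SEX4 and PWD, and ISA3 and MEX1 overlapped.

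**Figure D1:**
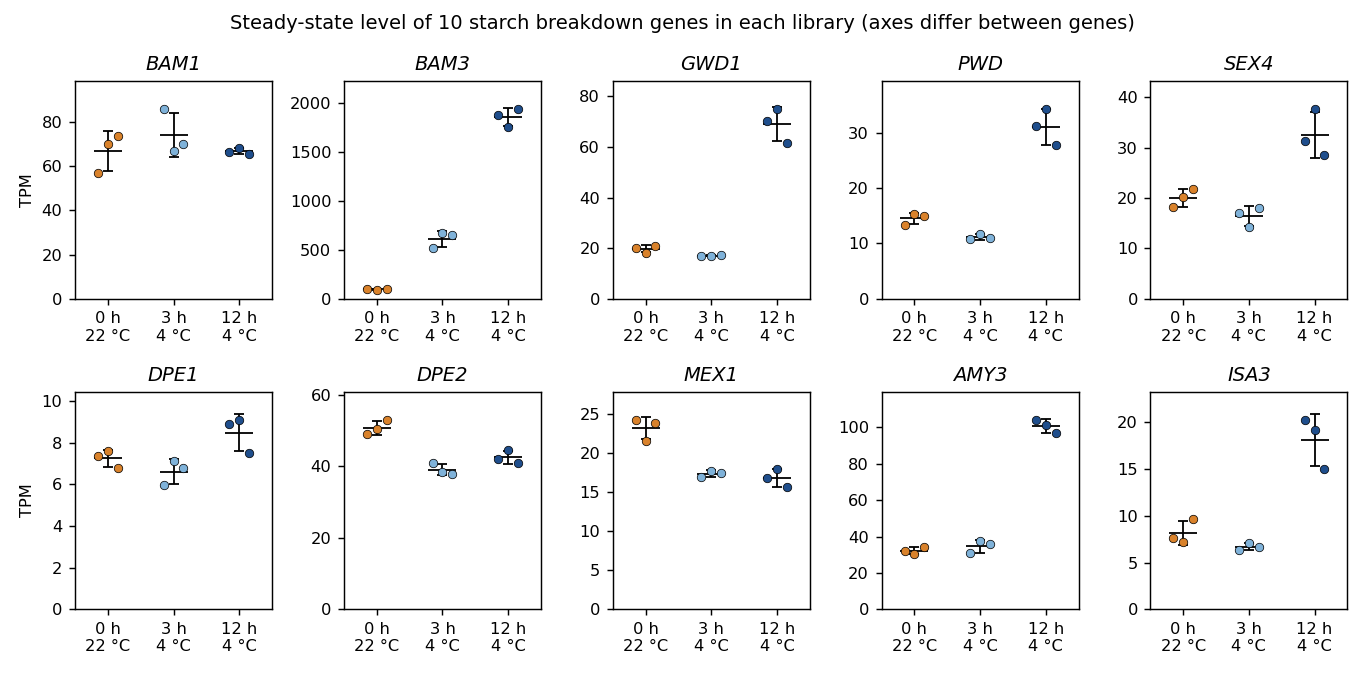
Level in TPM (vertical axis, from 0 and different for each gene) of the 10 genes at 0 h and 22 °C, and at 3 h and 12 h of 4 °C. Points are libraries and bars give the mean ± SD (n = 3). BAM3 stepped up at both times, from 91.2 to 98.4 TPM at 22 °C to 1755 to 1931 at 12 h, and GWD1, PWD, SEX4, AMY3, and ISA3 stood out only at 12 h.

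After 3 h at 4 °C, BAM3 was the only member called. Of 20460 genes tested, 7.05% were called higher and 3.47% lower at this time, and of the 10 members 1 was called higher and 0 lower. DESeq2 also called 0 members lower, and 4 members were lower at an unadjusted p under 0.05 in edgeR (PWD, SEX4, DPE2, and MEX1). These 4 had adjusted p values under 0.05 as well, with changes smaller than the fold minimum. The median change over the members was -0.19 on the log2 scale, beside -0.01 over all genes tested.

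After 12 h, both dikinases, the phosphatase, and the hydrolases BAM3, AMY3, and ISA3 had risen, and BAM1, DPE1, DPE2, and MEX1 were not called. Against 22 °C, 6 members were called higher (BAM3, GWD1, AMY3, ISA3, PWD, and SEX4) and 0 lower, where 15.5% of all genes were called higher and 17.7% lower. DESeq2 likewise called 6 higher and 0 lower, and in edgeR 1 member (MEX1) was lower at an unadjusted p under 0.05. The median over the members was 1.09, beside -0.03 over all genes. From 3 h to 12 h, 7 members were called higher, the same 6 and DPE1, and 0 lower, beside 11% of all genes called higher and 14.8% lower. DESeq2 called 7 and 0, and no member was lower at an unadjusted p under 0.05 (0 in edgeR). The median was 1.39, beside -0.03 over all genes.

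**Figure D2:**
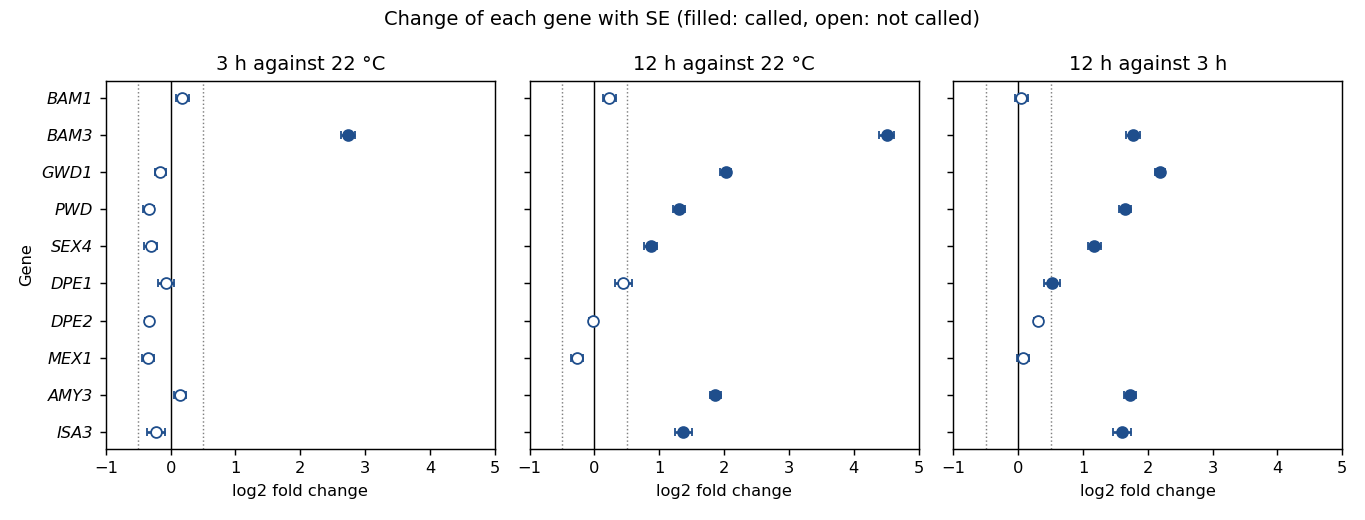
Log2 fold change (horizontal axis) of each gene in the 3 comparisons, with its SE. Filled points were called, open points were not, and dotted lines mark the fold minimum of 0.5 in either direction. At 3 h only BAM3 (2.73) lies beyond the lines, and at 12 h 6 genes do.

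The dikinases that start the process were called at 12 h and not at 3 h. GWD1 was at 20.1, 18.2, and 20.9 TPM at 22 °C, at 16.8, 17.0, and 17.2 at 3 h, and at 70.4, 74.8, and 61.7 at 12 h. All 12 h libraries lay far above the others, and all 3 h libraries lay below those at 22 °C by less than the fold minimum. At 3 h the log2 difference came to -0.16 (SE 0.08, edgeR adjusted p = 0.22). At 12 h GWD1 rose 4.08-fold (log2 2.03, SE 0.08, adjusted p = 9.5e-12). Only 3.49% of the genes tested had a larger rise at 12 h.

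PWD, which acts on glucans that GWD1 has already phosphorylated, was at 13.3, 15.2, and 14.9 TPM at 22 °C, 10.7, 11.7, and 11 at 3 h, and 31.1, 34.2, and 27.7 at 12 h. The 3 groups did not overlap, with the lowest values at 3 h. The difference at 3 h was -0.34 (SE 0.09, edgeR adjusted p = 0.014), short of the fold minimum. PWD rose 2.47-fold at 12 h (log2 1.31, SE 0.09, adjusted p = 4.2e-09).

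SEX4, the phosphatase, was at 18.2, 20.2, and 21.8 TPM at 22 °C, 17.1, 14.2, and 18.1 at 3 h, and 31.4, 37.6, and 28.5 at 12 h. The 3 h values reached to just below the lowest 22 °C value, and the 12 h values stood above both groups. At 3 h the log2 difference was -0.31 (SE 0.10, edgeR adjusted p = 0.046), and at 12 h SEX4 rose 1.82-fold (log2 0.87, SE 0.10, adjusted p = 2.1e-06), the smallest of the called rises against 22 °C.

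BAM3 and BAM1 encode beta-amylases of the chloroplast that make the same product, and only BAM3 was called. BAM3 was at 95.2, 91.2, and 98.4 TPM at 22 °C, 520.0, 669, and 649 at 3 h, and 1874, 1755, and 1931 at 12 h. It was already the most abundant of the 10 at 22 °C, where it ranked 1762 among the 32310 loci by mean TPM, and it ranked 177 at 3 h and 56 at 12 h. It rose 6.64-fold at 3 h (log2 2.73, SE 0.11, edgeR adjusted p = 4.2e-11) and 22.8-fold at 12 h (log2 4.51, SE 0.12, adjusted p = 9.3e-14). From 3 h to 12 h it rose by a further 1.78 (SE 0.11, adjusted p = 1.9e-09). Only 0.806% of genes rose more at 3 h and 0.689% at 12 h.

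BAM1 was at 56.9, 70.2, and 73.7 TPM at 22 °C, 85.8, 67.1, and 70.0 at 3 h, and 66.5, 68.3, and 65.6 at 12 h. In TPM its groups overlapped throughout, whereas in TMM-scaled CPM the 12 h libraries, at 148.5 to 155.5, lay above the 22 °C libraries, at 108.9 to 141.8. The log2 difference was 0.18 at 3 h (95% interval -0.03 to 0.39, edgeR adjusted p = 0.26) and 0.23 at 12 h (0.01 to 0.44, adjusted p = 0.071), so a change as large as the fold minimum lies outside both intervals. The level of BAM3 was 1.30 to 1.68 times that of BAM1 at 22 °C, 6.06 to 9.98 times at 3 h, and 25.7 to 29.4 times at 12 h.

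AMY3, like GWD1, was called at 12 h and not at 3 h. It was at 32.2, 30.2, and 34.5 TPM at 22 °C, 30.8, 37.5, and 35.7 at 3 h, and 104, 101, and 96.6 at 12 h. The 22 °C and 3 h values overlapped and all 12 h values were higher. The log2 difference was 0.15 at 3 h (95% interval -0.05 to 0.34, edgeR adjusted p = 0.32) and 1.87 at 12 h (SE 0.09, adjusted p = 9.2e-11), a 3.65-fold rise.

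ISA3, the debranching enzyme of degradation, was at 7.66, 7.21, and 9.63 TPM at 22 °C, 6.39, 7.12, and 6.62 at 3 h, and 20.2, 19.2, and 15 at 12 h. At 12 h every library lay above every library of the other groups. ISA3 rose 2.59-fold at 12 h (log2 1.37, SE 0.13, edgeR adjusted p = 3.1e-07), after a difference of -0.23 at 3 h (95% interval -0.52 to 0.06, adjusted p = 0.31).

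DPE1, which rearranges short chains in the plastid, had the lowest mean TPM of the members at every time. Its range overlapped that of ISA3 at 22 °C and at 3 h. DPE1 was at 7.39, 7.58, and 6.79 TPM at 22 °C, 5.96, 7.11, and 6.78 at 3 h, and 8.89, 9.09, and 7.49 at 12 h. It rested on 197 to 302 reads per library. In TPM the lowest 12 h library lay within the 22 °C range, whereas in CPM (counts scaled for depth, here with edgeR's TMM factors) the 12 h libraries, at 13.8 to 16.3, lay above the 22 °C libraries, at 10.2 to 11.8. The log2 difference was 0.45 at 12 h against 22 °C (SE 0.13, edgeR adjusted p = 0.0075), short of the fold minimum. It was 0.53 at 12 h against 3 h (SE 0.13, adjusted p = 0.0033), which was called. That call was lost without replicate 1 of the 3 h group (0.44) or replicate 1 of the 12 h group (0.48), and the difference at 12 h against 22 °C was called without replicate 3 of the 12 h group (0.51).

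DPE2, the cytosolic enzyme that uses exported maltose, was at 49.1, 50.4, and 52.9 TPM at 22 °C, 40.8, 38.5, and 37.8 at 3 h, and 42.0, 44.4, and 41.0 at 12 h. All cold libraries lay below all 22 °C libraries in TPM. In TMM-scaled CPM the 12 h libraries, at 110.6 to 111.7, fell within the 22 °C range of 109.6 to 116.9. The log2 difference was -0.34 at 3 h (95% interval -0.48 to -0.20, edgeR adjusted p = 0.0016) and -0.03 at 12 h (-0.16 to 0.11, adjusted p = 0.78), and neither was called.

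MEX1, the maltose exporter, had the lowest estimate of change among the members at both times. At 3 h the estimates of PWD and DPE2, both -0.34, lay within its SE of 0.09. MEX1 was at 24.3, 21.6, and 23.9 TPM at 22 °C, 16.9, 17.8, and 17.5 at 3 h, and 16.9, 18, and 15.8 at 12 h. All 6 cold libraries lay below all 22 °C libraries and the cold groups overlapped each other. The log2 difference was -0.35 at 3 h (95% interval -0.54 to -0.15, edgeR adjusted p = 0.017) and -0.27 at 12 h (-0.47 to -0.07, adjusted p = 0.028), both short of the fold minimum. The interval at 12 h does not reach a change of that size.

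Assignment of reads limited the values of BAM3, SEX4, and MEX1. Of the 31-base words in the transcripts of BAM3, 23.5% also occur, on the opposite strand, in AT4G06665, a long noncoding RNA that runs antisense within BAM3 (chr4:9606803-9607320, plus strand). The antisense locus held 6, 10, and 46.3 estimated reads at 22 °C, 130.2, 40.0, and 55.1 at 3 h, and 160.4, 180.6, and 724 at 12 h. That was 0.137% to 1.10% of the reads of BAM3 in the same library, with 1 library at each of 22 °C, 3 h, and 12 h well above the other 2 of its group. The libraries were strand-specific, but it is not stated how Salmon used the strand, so stray reads of BAM3 and true antisense RNA cannot be told apart here. MEX1 shares 42.8% of its words with the neighbouring AT5G17523 (chr5:5775586-5777350, minus strand, the strand of MEX1). AT5G17523 was listed at 0 reads in all 9 libraries, so the value of MEX1 may hold reads of both. SEX4 shared 1.49% of its words with other loci, and the other members shared 0.

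Of the members, 4 have more than 1 annotated transcript, and GWD1 and SEX4 showed more than 1 in several libraries. The 3 transcripts of GWD1 differ outside the coding sequence and encode the same protein of 1399 residues. Transcript 2 held 90.2% to 100% of the GWD1 reads at 22 °C, 98.4% to 100% at 3 h, and 85.4% to 89.8% at 12 h. Transcript 1, whose annotated start lies further upstream, held 0, 0, and 0% at 22 °C and 0, 1.55, and 0% at 3 h. At 12 h it held 14.6, 10.2, and 11.3%, or 12.0% ± 2.29 (SD, n = 3), so that no 12 h library overlapped with the others. The 22 °C libraries held 1384 to 1474 GWD1 reads. Were all GWD1 reads able to tell the transcripts apart, a 0 at 22 °C would allow up to 0.204% to 0.217%, counting error only. Transcripts 1 and 2 share most of their sequence, so the share that an estimate of 0 allows is larger and was not determined. No test was run on transcript shares. Transcripts 1 and 3 share their annotated start, and transcript 3 took 9.78% in replicate 1 at 22 °C and 0 elsewhere.

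**Figure D3:**
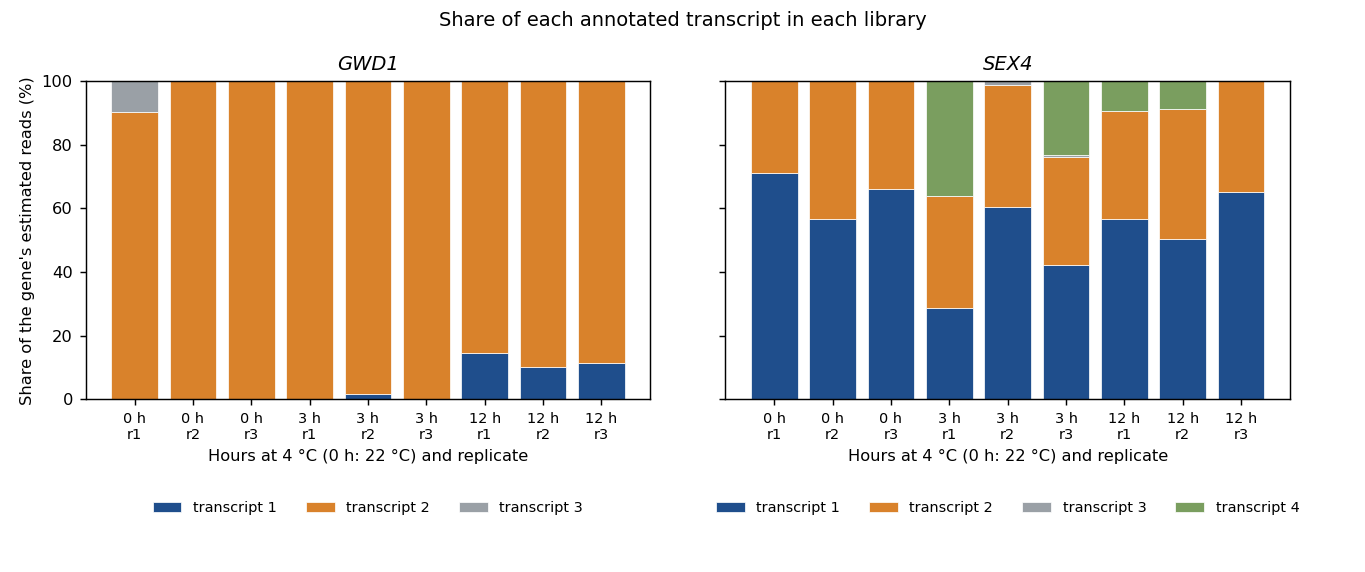
Share (%) of the estimated reads of GWD1 and SEX4 assigned to each annotated transcript, by library (hours at 4 °C and replicate). In GWD1, transcript 1 takes 10.2% to 14.6% in the 12 h libraries and at most 1.55% elsewhere, and in SEX4 transcript 4 comes and goes between replicates.

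In SEX4, transcript 1 encodes the protein of 379 residues. Transcript 2 keeps an intron of 266 bases (chr3:19350347-19350612) and its annotated protein ends after 292 residues. Transcript 2 held 35.4% ± 7.36 of the SEX4 reads at 22 °C, 35.8% ± 2.35 at 3 h, and 36.6% ± 3.73 at 12 h (SD, n = 3), means that lay closer to each other than the replicates did. Transcript 4, with a later start, held 0, 0, and 0% at 22 °C, 36.3, 0, and 23.1% at 3 h, and 9.31, 8.87, and 0% at 12 h. These values ranged from 0 to 36.3% at 3 h and from 0 to 9.31% at 12 h, so the cold groups overlapped. They come from only 282 to 673 SEX4 reads per library. In PWD and MEX1 the second transcript reached at most 4.58% and 5.59% of reads in any library.

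The 10 members were set beside a list of 18 other genes of starch breakdown and a list of 21 of starch synthesis. Both lists were chosen with earlier results of these data known, and both are broad. The first takes in the rest of the BAM family and hexokinases, and the second the starch granule proteins LESV and ESV1. Not every gene on them is an enzyme of the named process. Of all genes tested, 7.05% were called higher and 3.47% lower at 3 h. At 3 h, 0 of the 18 other breakdown genes were called higher (1 at an unadjusted p under 0.05 in edgeR, 0 by DESeq2) and 1 lower, with a median of -0.15. That gene was BAM9, which encodes a beta-amylase-like protein without activity. It lay between 79.5 and 84.5 TPM at 22 °C, 36.9 and 42.7 at 3 h, and 25 and 28.5 at 12 h, and fell by 0.95 (SE 0.08, adjusted p = 2.8e-07) and 1.35 (SE 0.08, adjusted p = 1.3e-09) on the log2 scale in edgeR.

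At 12 h, 5 of the 18 were called higher (PHS2, BAM4, LSF1, AMY2, and HXK2) and 5 lower (BAM9, BAM5, BAM6, LSF2, and GWD2), with a median of 0.02. Of all genes tested, 15.5% were called higher and 17.7% lower at this time. PHS2, the cytosolic glucan phosphorylase, rose 3.47-fold (log2 1.80, SE 0.08, edgeR adjusted p = 2.6e-11). BAM4, a protein of the BAM family that lacks activity and is needed for normal starch breakdown in Arabidopsis, rose 2.18-fold (log2 1.12, SE 0.09, adjusted p = 5.5e-08). Of the 9 genes of the BAM family, BAM3 and BAM4 were called higher, BAM5, BAM6, and BAM9 lower, and BAM1, BAM2, BAM7, and BAM8 were not called. These calls stand beside the same 15.5% and 17.7% of all genes, and BAM5 rested on only 1 to 24 reads per library. From 3 h to 12 h, 5 of the 18 were called higher and 1 lower (BAM6), with a median of 0.13, beside 11% and 14.8% of all genes.

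Of the 21 synthesis genes, 0 were called higher at 3 h (1 at an unadjusted p under 0.05 in edgeR, 0 by DESeq2). At this time 3 were called lower (GBSS1, ISA2, and APL3), with a median of -0.21. The shares over all genes were 7.05% higher and 3.47% lower. At 12 h, 5 were called higher (LESV, SBE2.1, SS4, APL4, and ESV1) and 2 lower (GBSS1 and ISA2), with a median of 0. Over all genes 15.5% were called higher and 17.7% lower. From 3 h to 12 h the counts were 5 and 2, with a median of 0.12, beside 11% and 14.8% of all genes. GBSS1, the synthase of amylose, fell by 0.82 (SE 0.08, edgeR adjusted p = 2.1e-06) at 3 h and by 1.56 (SE 0.08, adjusted p = 3e-10) at 12 h. ISA2, a subunit of the isoamylase that trims amylopectin as it is made, fell by 0.54 (SE 0.09, adjusted p = 0.00024) and 1.20 (SE 0.09, adjusted p = 1.6e-08). APL3, a large subunit of ADP-glucose pyrophosphorylase, fell by 0.71 (SE 0.15, adjusted p = 0.0028) at 3 h.

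Of the synthesis genes that rose at 12 h, LESV, a protein of the starch granule, was at 7.17 to 8.76 TPM at 22 °C, 7.82 to 8.55 at 3 h, and 57.1 to 58.6 at 12 h, an 8.68-fold rise (log2 3.12, SE 0.09, edgeR adjusted p = 2.4e-13). SBE2.1, a branching enzyme, rose 2.92-fold (log2 1.55, SE 0.09, adjusted p = 6.1e-10). Names given here beyond the rule for named genes were chosen after their values were seen. The differences in median between the 3 lists were not tested.

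**Figure D4:**
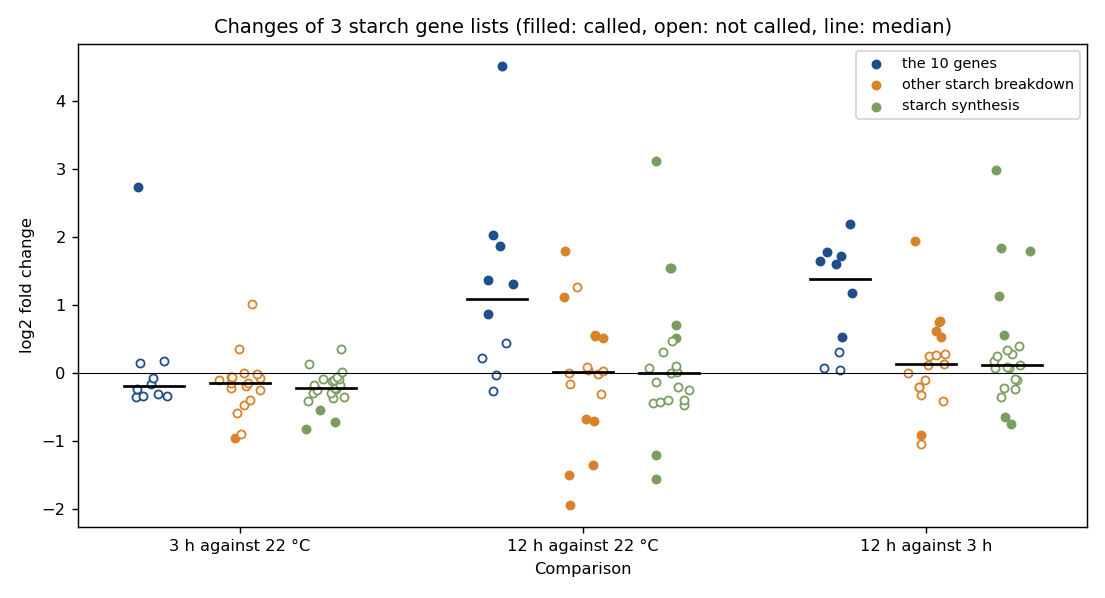
Log2 fold change (vertical axis) of the 10 genes, 18 other breakdown genes, and 21 synthesis genes in the 3 comparisons. Filled points were called, open points were not, and lines are medians. At 12 h against 22 °C the medians were 1.09, 0.02, and 0.

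Beside the motifs shown above, the members with an evening element near their annotated gene start were GWD1, PWD, ISA3, and DPE1. The first 3 were called higher at 12 h against 22 °C, where 15.5% of all genes were called higher. DPE1 was called only at 12 h against 3 h, where 11% of all genes were called higher. The members called higher without this element in the window were BAM3, AMY3, and SEX4. BAM1, DPE2, and MEX1, which were not called at any time, lacked it too. Whether the element goes with a call was not tested, in the members or over all genes. In the 1000 bases before the gene start, a window added after the data were seen, 3 of 10 members had the element, beside 7.24% of all genes. These were GWD1, PWD, and ISA3. The GWD1 match in this window is a different site from the one shown, at chr1:3591372-3591380.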

How the data were processed

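RNA-seq of 9 libraries was used. The authors removed rRNA reads with SortMeRNA, trimmed adapters with Trimmomatic, and assigned reads to ARAPORT11 transcripts with Salmon, whose options are not given in the sources used here. The deposited values include estimated counts, which are unscaled, may be fractional, and are given for each library and transcript. The TPM values were deposited by the authors beside them, scaled by Salmon for effective length and depth.

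Estimated counts were added up by locus, rounded, filtered with filterByExpr, scaled by TMM, and tested with edgeR's quasi-likelihood test (edgeR 4.0.16, limma 3.58.1, R 4.3.3) in 1 model over 9 libraries and 20460 genes, with Benjamini-Hochberg adjustment. The authors' DESeq2 was run as an alternative (DESeq2 1.42.0). SEs were derived from the size of the fold change and its F value. The code was tested on simulated data. Python 3.11.15 with pandas 2.3.3 and matplotlib 3.10.9 was used for tables and figures. Libraries of the same group differed by more than the sampling noise (chi-square per degree of freedom of 3.43 to 13.5).

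Positions, structures, and sequences came from RefSeq TAIR10.1, whose transcripts had the same length as those in the files in 53045 of 53045 matched cases (53467 in the files). The members, the gene lists, and the tests were chosen with earlier results of these data known. The rule for named genes covered all members and, of the other 2 lists, the 3 called genes with the smallest p at 3 h and at 12 h against 22 °C. Further genes of these lists are named beyond this rule.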

Additional observations from a re-analysis of the deposited data

How the results depend on the processing

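Over 21 alternatives for each comparison, no called change of a member turned its direction, and BAM3 ranged from 2.66 to 2.84 at 3 h and from 4.27 to 4.57 at 12 h. Upper quartile scaling shifted the median of all genes at 12 h to -0.16 and limma on log2(TPM + 1) to -0.21, and the genes called higher and lower went from 3166 and 3616 to 2559 and 4739 and to 2166 and 5259. The rises of GWD1, PWD, ISA3, AMY3, and BAM3 at 12 h were called under all alternatives, that of SEX4 under all but a log2 fold change of at least 1 (0.87). The call of DPE1 at 12 h against 3 h was lost with upper quartile factors (0.45), limma (0.32), and the fold minimum of 1 (0.53). Counts of called members moved by over 1.5 times only without a fold minimum, to 4 lower at 3 h and 1 lower at 12 h.

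Without a fold minimum, the other breakdown genes gave 1 higher and 2 lower at 3 h and 3 lower at 12 h against 3 h, and the synthesis genes 6 lower at 3 h, 8 lower at 12 h, and 8 higher and 4 lower at 12 h against 3 h. With a fold minimum of 1, the breakdown genes gave 0 lower at 3 h, 2 higher and 3 lower at 12 h, and 1 higher and 0 lower at 12 h against 3 h, and the synthesis genes 0 lower at 3 h, 3 higher at 12 h, and 0 lower at 12 h against 3 h. With upper quartile factors, breakdown genes gave 3 lower at 3 h and 2 higher at 12 h, and synthesis genes 7 lower at 12 h. With limma, breakdown genes gave 2 higher at 12 h and 2 higher and 2 lower at 12 h against 3 h, and synthesis genes 3 higher and 7 lower at 12 h. Without a filter, breakdown genes gave 2 lower at 3 h. With each library left out in turn, breakdown genes gave 1 to 2 lower at 3 h (2 without replicate 1 at 22 °C or replicate 3 at 3 h) and synthesis genes 0 to 1 higher at 3 h (1 without replicate 1 at 22 °C or at 3 h). The fall of ISA2 at 3 h was not called without replicate 1 at 22 °C (-0.50). For the counts moved by a threshold or filter the alternative itself sets the change. For the other settings the cause was not tested.

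The replicate block gave 2 lower breakdown genes at 3 h and changed no call of a member. Residuals of libraries with the same number correlated at -0.197 to 0.105, and those with different numbers at -0.135 to 0.13. No pairing by number was seen. Residuals within a group of 3 are not independent, so this check is weak and cannot exclude pairing. In TPM, group means at 12 h gave lower log2 ratios than TMM-scaled CPM, for example -0.26 and -0.02 for DPE2. Depth limits DPE1, MEX1, ISA3, and the transcripts of SEX4, which had 197 to 789 reads per library.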
